A study of Rattus norvegicus with 16 samples.

Results

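The Achilles and the patellar tendon, the 2 hindlimb tendons of the study, were compared gene by gene. The comparison took 4 Achilles and 4 patellar libraries, 8 of the 16 libraries sequenced, and was chosen by the tendon named in the labels. All animals were Sprague Dawley rats, an outbred laboratory strain, and every library was made from total RNA of tendon tissue. The labels name no injury or treatment, and age, sex and the number of animals were not given in the sources used here. Each title carries a rat number from 1 to 4 that recurs in every tendon. Since nothing states that these are separate animals, p-values measure only the spread between these libraries, which may be technical. The other 8 libraries, 4 of the forepaw flexor tendons and 4 of the supraspinatus tendon of the shoulder, entered the fit to estimate that spread.

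The Achilles tendon joins the calf muscles to the heel bone, and the patellar tendon joins the kneecap to the shin bone. Both are dense ropes of type I collagen made by tendon fibroblasts, and both lie against fibrocartilage, fat and lining tissue. Positional identity in a limb is carried by transcription factors laid down in the embryo: HOX genes, whose order along a chromosome cluster mirrors their order along the body and limb, and factors such as MEIS, HAND, LHX and T-box proteins that mark the limb root, its rear side or the limb type. Adult connective tissue cells are known to keep much of that code.

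Library totals ran from 85403509 to 102491699 counts in the Achilles tendon and from 63397591 to 74829951 in the patellar tendon, so 3 counts, the limit that a count of 0 allows, stood for at most 0.0425 CPM, where CPM is the count scaled to a common library size. Intervals and limits of this kind cover counting error only. Of 23285 genes in the table, 16948 had enough counts to be tested. Levels are CPM over a library total scaled by the trimmed mean of M-values (TMM), listed from library 1 to library 4, and a difference is the log2 fold change of Achilles minus patellar tendon with its standard error. Adjusted p-values come from edgeR's quasi-likelihood test with Benjamini-Hochberg adjustment, and a gene is called when that value is under 0.05.

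One library of each tendon stood apart. Over the 500 most variable genes, Achilles 1 lay nearest to a patellar library, patellar 3, at a distance of 2.96. Its mean distance was 3.79 to the other Achilles libraries and 3.34 to the patellar libraries. Patellar 1 lay nearest to patellar 4, at 2.65, with a mean of 3.19 to its own tendon and 3.42 to the Achilles libraries. In the fit with sample quality weights, these 2 libraries had the lowest weights of the 8, 0.316 for Achilles 1 and 0.35 for patellar 1. Myelinating Schwann cell and nerve markers made up 1.0% of the counts of Achilles 1 against 0.141 to 0.182% in the other Achilles libraries. Fast muscle markers made up 2.21% of the counts of patellar 1 against 0.0143 to 0.303% in the other patellar libraries. Slow muscle markers made up 0.139 to 0.582% in Achilles 2 to 4, and 0.0232% in Achilles 1, which was at the level of the patellar libraries (0.024 to 0.0266%). In bulk tissue, fewer cells of a type and less RNA per cell cannot be told apart. A fit with the muscle marker level as a covariate called 838 genes, and the part of the Schwann cell marker level was not tested. Each gene below was also fitted without Achilles 1, without patellar 1 and without both. The text gives larger changes in call or value from these fits, and not every change.

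**Figure D1:**
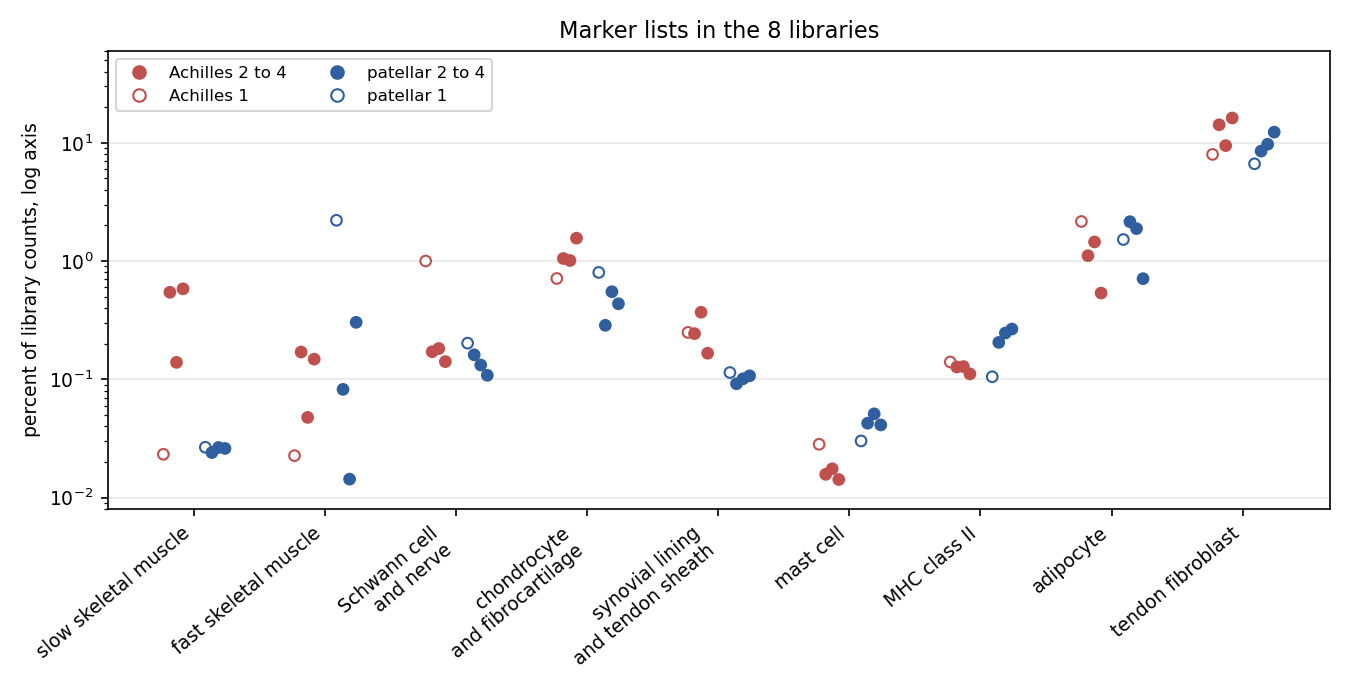
Share of library counts (percent, log axis) taken by 9 marker lists in each Achilles (red) and patellar (blue) library, with library 1 of each tendon as an open circle. Achilles 1 stands at 1.0% for Schwann cell and nerve markers and patellar 1 at 2.21% for fast muscle markers, while slow muscle markers are raised in Achilles 2 to 4.

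Between the tendons 874 of 16948 genes were called (5.16%), 525 of them higher (3.1%) and 349 lower (2.06%) in the Achilles tendon. Of these, 260 were at least 2-fold higher and 138 at least 2-fold lower. The median size of a called log2 fold change was 0.913, and the median over all genes tested was -0.01. In 2119 genes (12.5%) all 4 libraries of one tendon lay above all 4 of the other, and 760 of the 874 called genes were among them. No overlap was also a condition for naming the genes of largest fold or smallest p. Where it is given below for a called gene, it describes the values and is no further support. The count of calls rose to 1381 (8.09%) without both Achilles 1 and patellar 1, and to 1415 (8.22%) without patellar 1. It was 887 (5.17%) without Achilles 1, and 268 (1.66%) when the 8 hindlimb libraries were fitted alone. When the hindlimb libraries were fitted alone without Achilles 1 and patellar 1, it was 959 of 16180 genes, 456 higher and 503 lower. The shares of genes called higher and lower were 3.04 and 2.13% without Achilles 1, and 4.21 and 4.02% without patellar 1. They were 4.52 and 3.57% without both, and 0.929 and 0.73% in the 8 hindlimb libraries alone. Without Achilles 2 the count fell to 342, without Achilles 3 to 480, without patellar 2 to 403, without patellar 3 to 360 and without patellar 4 to 463.

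**Figure D2:**
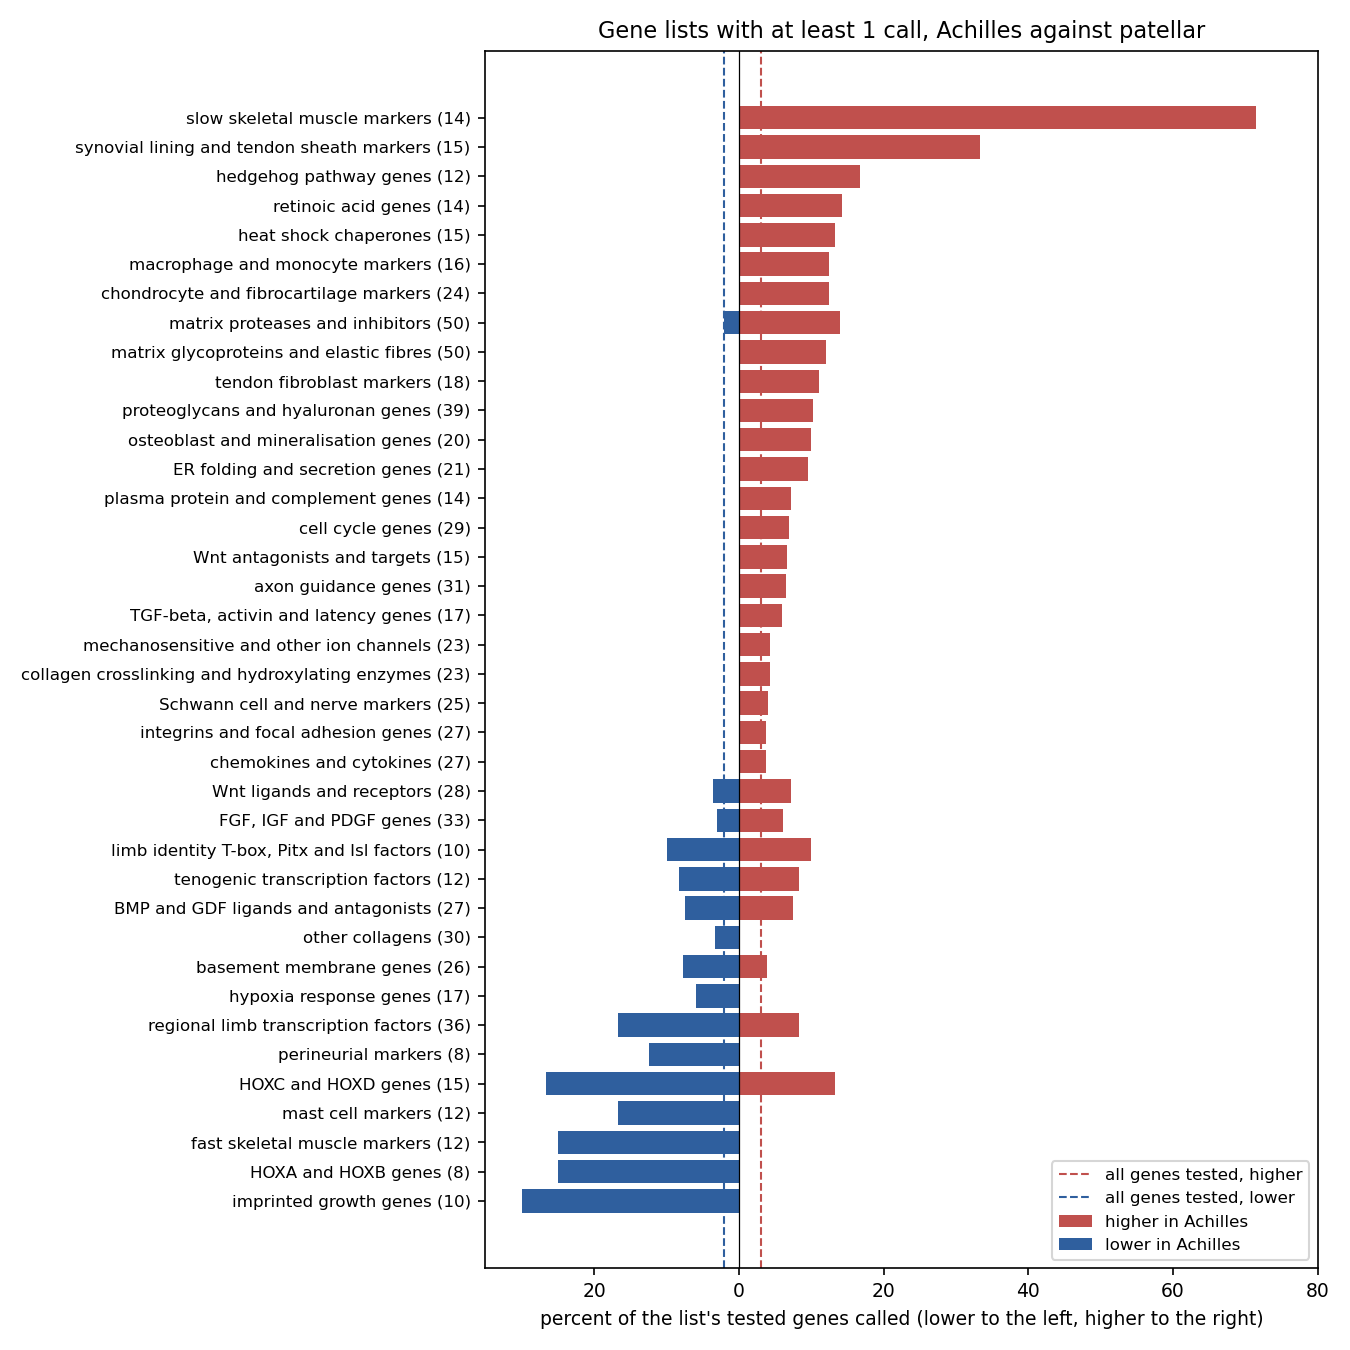
Percent of each list's tested genes (number in brackets) called higher (red, to the right) or lower (blue, to the left) in the Achilles tendon, for lists with at least 1 call; dashed lines give the shares over all genes tested, 3.1% and 2.06%. Slow muscle and synovial markers reach furthest to the right, and imprinted growth genes and the HOXC and HOXD genes furthest to the left.

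Transcription factors of limb position separated the tendons. Of 69 HOX, T-box, PITX, ISL and regional limb factors tested, 19 were called (27.5%, against 5.16% of all genes), 6 higher and 13 lower in the Achilles tendon, with a median log2 fold change of -0.26 over the 69. The count was 18 without Achilles 1, 21 without patellar 1, 22 without both and 15 in the 8 hindlimb libraries alone. Lhx9, Isl1, Hand2, Emx2 and members of the HOXC cluster were among those called.

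Lhx9, a LIM-homeodomain factor of the front and root of the limb bud, measured 5.91, 5.21, 6.53 and 5.98 CPM in the patellar libraries. It measured 0.186, 0.0621, 0.0706 and 0.345 CPM in the Achilles libraries, a log2 fold change of -5.15 ± 0.45 (adjusted p = 5.59e-05). All 4 patellar libraries were high and all 4 Achilles libraries near 0, including the library of each tendon that stood apart. Without Achilles 4 the log2 fold change was -5.76. Emx2, a homeobox factor needed for the shoulder blade and the urogenital tract, was also lower in the Achilles tendon, at 0.709, 0.921, 0.302 and 1.01 CPM against 4.85, 7.43, 9.17 and 11.1 CPM (-3.47 ± 0.34, adjusted p = 0.000124). En1, which marks the underside of the limb bud, was lower at 0.354, 0.300, 0.151 and 0.289 CPM against 0.645, 0.766, 1.32 and 1.48 CPM (-1.93 ± 0.39, adjusted p = 0.0137); it was chosen for mention after its values were seen. The groups overlapped in none of these 3 genes.

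MEIS proteins are HOX partners that mark the limb root. Meis2 measured 1.80, 2.04, 1.54 and 3.05 CPM in the Achilles libraries and 7.57, 8.92, 9.58 and 12.2 CPM in the patellar libraries (-2.18 ± 0.29, adjusted p = 0.00103). Meis1, also chosen after its values were seen, measured 2.49, 4.12, 3.08 and 4.23 CPM and 7.30, 7.62, 10.3 and 11.6 CPM (-1.41 ± 0.21, adjusted p = 0.00292). Both were lower in every Achilles library than in any patellar library. Osr2, a zinc finger factor of joints and the dental and limb mesenchyme, followed the same direction with 8.88, 5.34, 4.99 and 3.67 CPM against 18.6, 27.5, 31.6 and 43.0 CPM (-2.40 ± 0.29, adjusted p = 0.000643). Within each tendon, Osr2 in library 1 was the value nearest to the other tendon.

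Isl1, a LIM-homeodomain factor of the early hindlimb field and of motor neurons, was the limb factor with the largest rise in the Achilles tendon. It measured 12.8, 23.0, 22.8 and 24.4 CPM in the Achilles libraries and 0, 0.808, 0 and 0.0509 CPM in the patellar libraries, of which 2 had no counts (6.63 ± 0.98, adjusted p = 0.00292). The patellar level came almost wholly from patellar 2 with 57 counts, and without that library the log2 fold change was 10.16. Hand2, which sets up the rear side of the limb bud, measured 1.71, 2.46, 2.76 and 4.53 CPM against 0.0608, 0.142, 0.172 and 0.216 CPM (4.27 ± 0.43, adjusted p = 0.000149). Msx2, a homeobox factor of distal limb mesenchyme and of mineralising tissue, measured 4.38, 1.66, 1.86 and 2.89 CPM against 0.341, 0.482, 0.0924 and 0.471 CPM (2.96 ± 0.58, adjusted p = 0.0116). In all 3 genes every Achilles library lay above every patellar library. Sall1, which encodes a zinc finger protein needed for digits, was called at very low counts, 35, 41, 57 and 37 in the Achilles libraries and 1, 2, 0 and 0 in the patellar libraries (adjusted p = 0.000282), and a fold is not given for so few counts.

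Of 10 T-box, PITX and ISL factors that mark limb type or field, Isl1 was the 1 called higher and Tbx5 the 1 called lower. Tbx5, the forelimb and heart T-box factor, measured 0.416, 0.466, 0.817 and 0.156 CPM in the Achilles libraries and 1.06, 6.87, 6.05 and 6.16 CPM in the patellar libraries (-3.43 ± 0.52, adjusted p = 0.00328). Patellar 1 was far below the other patellar libraries, the log2 fold change was -3.76 without it, and with the 8 hindlimb libraries alone the adjusted p was 0.0516. Tbx4, its hindlimb counterpart, measured 6.43, 15.3, 15.1 and 31.6 CPM and 3.70, 6.33, 11.7 and 14.6 CPM (0.92 ± 0.43, adjusted p = 0.229) and was not called. Pitx1, which acts upstream of Tbx4 in the hindlimb, measured 3.90, 14.1, 18.5 and 35.5 CPM and 6.04, 13.7, 18.4 and 23.1 CPM (0.24 ± 0.52, adjusted p = 0.828). In both genes the groups overlapped and library 1 was the lowest of its tendon.

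**Figure D3:**
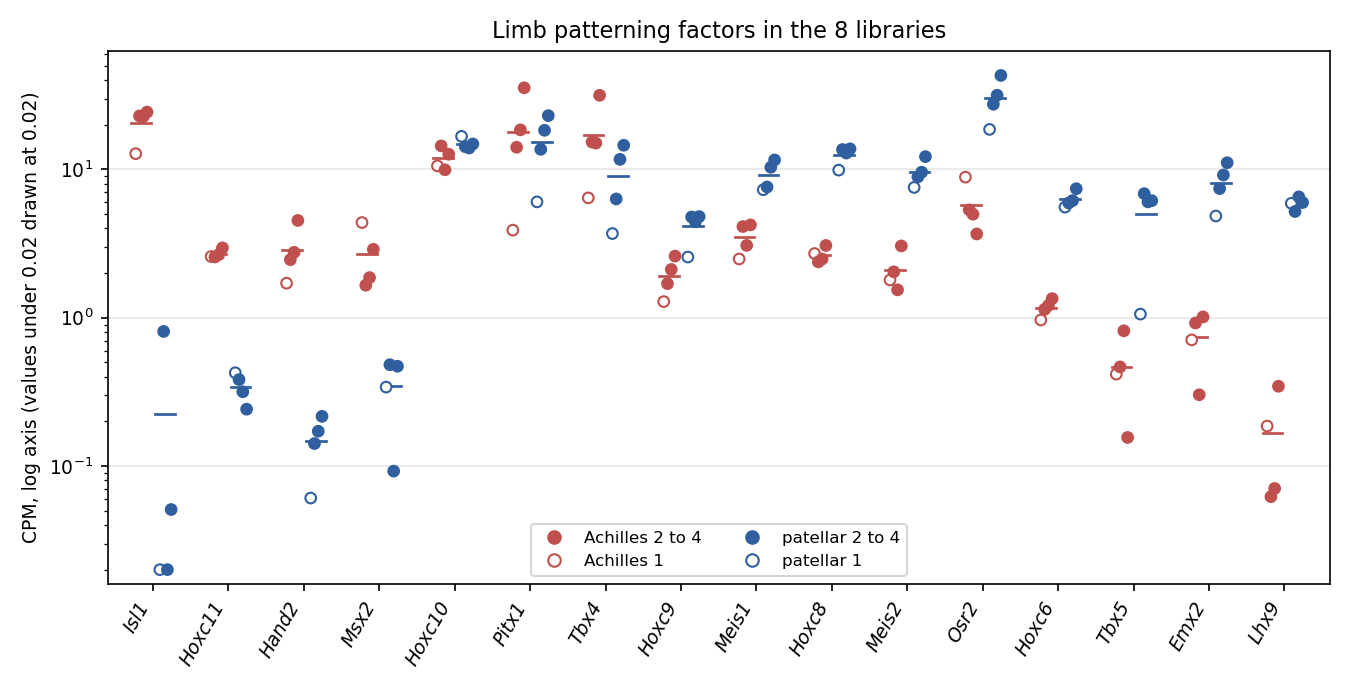
Level of 16 limb patterning factors (CPM, log axis) in each Achilles (red) and patellar (blue) library, with bars for the means and open circles for library 1 of each tendon. The groups separate for Isl1, Hoxc11, Hand2 and Msx2 (higher in Achilles) and for Meis1, Hoxc8, Meis2, Osr2, Hoxc6, Tbx5, Emx2 and Lhx9 (lower), and overlap for Hoxc10, Pitx1, Tbx4 and Hoxc9.

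Along the HOXC cluster the direction of the difference followed the order of the genes. Hoxc11, at the end of the cluster that is active toward the tail and the limb tip, measured 2.59, 2.57, 2.66 and 2.96 CPM in the Achilles libraries and 0.426, 0.383, 0.317 and 0.242 CPM in the patellar libraries (2.97 ± 0.37, adjusted p = 0.000721). Its neighbour Hoxc10 measured 10.6, 14.4, 9.95 and 12.7 CPM and 16.7, 14.2, 13.9 and 14.9 CPM and was not called (-0.33 ± 0.23, adjusted p = 0.415). Hoxc9 measured 1.28, 1.70, 2.12 and 2.60 CPM and 2.57, 4.78, 4.43 and 4.81 CPM, with an adjusted p of 0.0817 (-1.11 ± 0.35) that became 0.0426 without patellar 1. From there on toward the front end of the cluster every gene tested was lower in the Achilles tendon. Hoxc8 measured 2.71, 2.38, 2.49 and 3.07 CPM against 9.90, 13.6, 12.9 and 13.8 CPM (-2.24 ± 0.41, adjusted p = 0.0086). Hoxc6 measured 0.966, 1.14, 1.21 and 1.35 CPM against 5.57, 5.94, 6.16 and 7.42 CPM (-2.43 ± 0.26, adjusted p = 0.000208). Hoxc5 (-1.06 ± 0.25, adjusted p = 0.0246) and Hoxc4 (-1.16 ± 0.30, adjusted p = 0.0371) were lower by smaller amounts, with no overlap between the groups. Hoxc11, Hoxc8 and Hoxc6 were called in each of the 8 fits that left out 1 library, while Hoxc4 and Hoxc5 each lost the call in 6 of them.

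In the HOXB cluster the 2 genes nearest to the front end among those tested were lower in the Achilles tendon. Hoxb2 measured 1.20, 1.14, 1.46 and 1.27 CPM against 2.79, 3.67, 2.56 and 2.96 CPM (-1.24 ± 0.25, adjusted p = 0.0123). Hoxb3 measured 0.213, 0.186, 0.383 and 0.556 CPM against 0.827, 0.922, 0.871 and 1.21 CPM (-1.52 ± 0.37, adjusted p = 0.0329), and lost the call in 6 of the 8 fits that left out 1 library and without both library 1s. Their neighbour Hoxb4, named for its place after its values were seen, was not called (0.02 ± 0.23, adjusted p = 0.975). Hoxb7, in the middle of the cluster, was not called (-0.26 ± 0.21, adjusted p = 0.491). In the HOXD cluster only Hoxd11 was called (adjusted p = 0.00351), with 10, 15, 28 and 19 counts in the Achilles libraries and 1, 0, 1 and 1 in the patellar libraries, too few for a fold. Hoxd10 (0.09 ± 0.38, adjusted p = 0.915) and Hoxd9 (-0.21 ± 0.30, adjusted p = 0.717) were not called. HOXA genes are not analysed here.

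**Figure D4:**
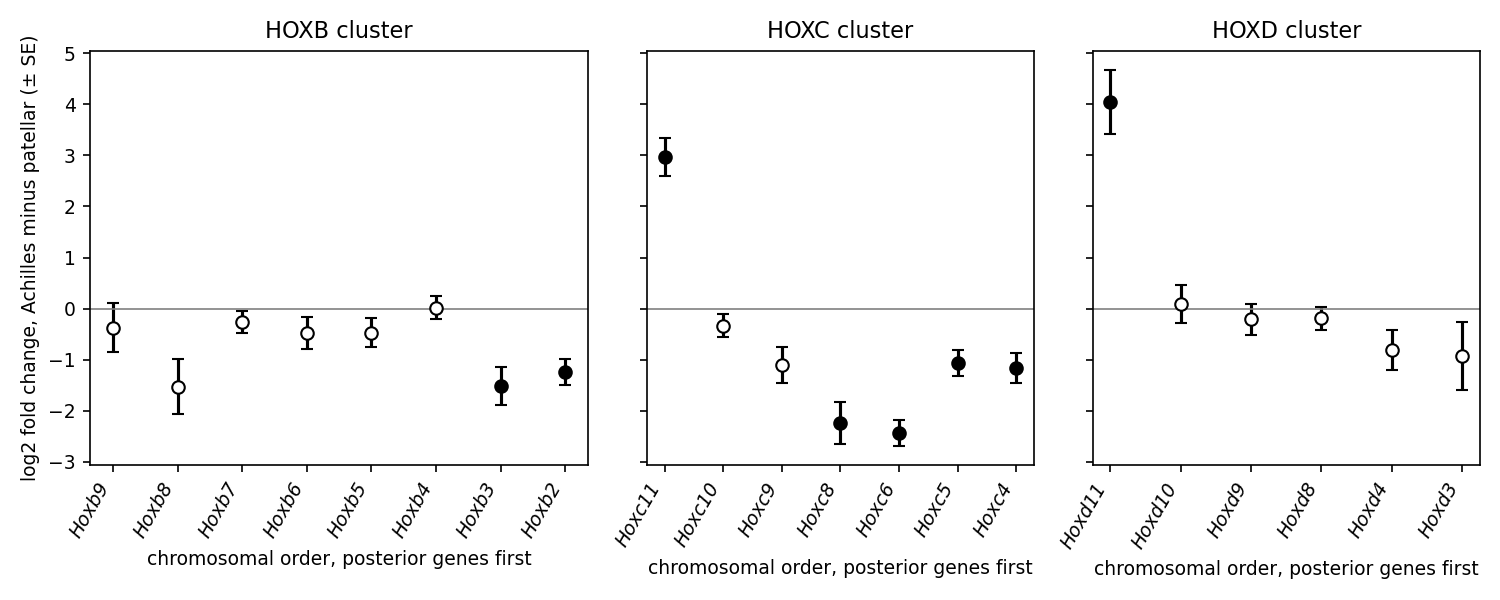
Log2 fold change of Achilles minus patellar tendon (± SE) for HOX genes with a mean of at least 0.15 CPM in one tendon, in chromosomal order with the posterior genes to the left; filled points have an adjusted p under 0.05. In the HOXC panel the value runs from 2.97 at Hoxc11 to -2.43 at Hoxc6, with Hoxc10 at -0.33.

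The same factors were compared between the forepaw flexor and the supraspinatus tendon, whose levels do not enter the Achilles minus patellar difference. This comparison was added after the data were seen, and 23.4% of all genes tested were higher and 24.3% lower in the flexor tendon. Of the 13 limb factors lower in the Achilles tendon, 10 were also lower in the flexor than in the supraspinatus tendon (76.9%, against 23.2% of all 69 factors). Meis2 had a mean of 0.496 CPM in the flexor and 6.57 CPM in the supraspinatus tendon, and Hoxc6 0.0849 and 3.48 CPM. Tbx5 and Osr2 were the 2 that were higher in the flexor tendon, with Tbx5 at 29.0 CPM against 12.1 CPM. Of the 6 factors higher in the Achilles tendon, 4 were also higher in the flexor tendon (66.7%, against 49.3% of all 69), and the others, Isl1 and Hoxc11, were near 0 in both forelimb tendons. Hand2 had a mean of 6.26 CPM in the flexor and 0.122 CPM in the supraspinatus tendon.

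Of 15 synovial lining and tendon sheath markers tested, 5 were called, all higher in the Achilles tendon (33.3%, against 3.1% of all genes), and the median log2 fold change of the 15 was 0.47. With the 8 hindlimb libraries alone 2 were called. Prg4, which encodes lubricin, the lubricant of joint and tendon surfaces, measured 995, 1278, 2032 and 795 CPM in the Achilles libraries and 162, 93.1, 93.1 and 64.5 CPM in the patellar libraries (3.63 ± 0.33, adjusted p = 6.68e-05). The lowest Achilles library was far above the highest patellar library. Clic5, a chloride channel protein found in lining fibroblasts, measured 37.4, 34.6, 64.0 and 23.3 CPM against 18.6, 13.1, 10.8 and 7.19 CPM (1.68 ± 0.30, adjusted p = 0.00722). Cdh11, the cadherin that holds lining fibroblasts together, measured 116, 87.8, 92.4 and 75.5 CPM against 37.6, 32.9, 26.5 and 45.3 CPM (1.39 ± 0.26, adjusted p = 0.0105). Neither gene overlapped between the tendons.

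Htra4, a secreted serine protease, measured 17.1, 17.7, 66.6 and 11.2 CPM against 7.25, 2.81, 3.42 and 4.81 CPM (2.62 ± 0.64, adjusted p = 0.0303). Achilles 3 was far above the rest, and without it the log2 fold change was 1.75 and the call was lost, as it was without Achilles 2, patellar 2, patellar 3 or patellar 4. Tppp3, a tubulin-binding protein of sheath cells, was called at a small difference (0.59 ± 0.16, adjusted p = 0.0469) that lost the call in 7 of the 8 fits that left out 1 library. Synovial and sheath markers together took 0.166 to 0.369% of the counts of the Achilles libraries and 0.0916 to 0.114% of those of the patellar libraries, ranges that do not overlap. Prg4 is part of this sum, so the gap between the ranges is not separate from the Prg4 difference above. The ranges were not compared without Prg4. The part of that share in the values of single genes was not tested.

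A cluster of matrix metalloproteinase (MMP) genes, which lie side by side on rat chromosome 8, held changes in both directions. Mmp3, stromelysin-1, which cuts proteoglycans and activates other MMPs, measured 109, 157, 182 and 107 CPM in the Achilles libraries and 12.3, 9.35, 9.94 and 10.2 CPM in the patellar libraries (3.73 ± 0.29, adjusted p = 3.23e-05). Mmp10, stromelysin-2, measured 11.2, 14.2, 17.0 and 9.37 CPM against 1.29, 1.03, 1.15 and 1.28 CPM (3.44 ± 0.31, adjusted p = 6.68e-05). Mmp12, the macrophage elastase, measured 11.0, 23.5, 17.6 and 6.83 CPM against 1.63, 1.32, 2.86 and 2.19 CPM (2.88 ± 0.45, adjusted p = 0.00359). All 3 genes were higher in every Achilles library than in any patellar library and were called in each fit that left out 1 library.

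Mmp27, a less studied member of the same cluster, went the other way. It measured 10.7, 4.56, 3.22 and 3.18 CPM in the Achilles libraries and 22.8, 34.5, 47.7 and 56.9 CPM in the patellar libraries (-2.90 ± 0.54, adjusted p = 0.00913), and library 1 of each tendon was the one nearest to the other tendon. Collagenases of the cluster were near or under 1 CPM. Mmp13, collagenase-3, measured 0.0709, 0.424, 0.343 and 0.111 CPM against 0, 0.241, 1.04 and 0.191 CPM (adjusted p = 0.757). Mmp8, the neutrophil collagenase, measured 0.487, 0.0828, 0.232 and 0.111 CPM against 0.353, 0.454, 0.462 and 0.878 CPM (-1.22 ± 0.57, adjusted p = 0.235, and -1.90 without Achilles 1). Both were chosen for mention because of their place in the cluster, after the values were seen, and neither was called.

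The stretch before the start of transcription is shown for the 6 genes of the cluster above, since neighbours that differ in direction can be compared by what lies at their promoters. The sequences are from RefSeq (build GRCr8, rat chromosome 8, plus strand), run 5′ to 3′ from 250 to 16 bases before the start, and are written in lower case. The windows are chr8:12782579-12782813 for Mmp13, chr8:12866402-12866636 for Mmp12, chr8:12925031-12925265 for Mmp3, chr8:12974457-12974691 for Mmp10, chr8:13008640-13008874 for Mmp8 and chr8:13030502-13030736 for Mmp27. Capitals mark matches to the AP-1 motif TGANTCA, which reads the same on both strands, or to the TATA motif TATAAA on either strand.
Mmp13: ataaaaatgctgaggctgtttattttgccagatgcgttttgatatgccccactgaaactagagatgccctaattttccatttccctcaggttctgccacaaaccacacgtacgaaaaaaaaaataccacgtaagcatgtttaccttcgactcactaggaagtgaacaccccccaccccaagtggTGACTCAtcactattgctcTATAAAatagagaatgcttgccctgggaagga
Mmp12: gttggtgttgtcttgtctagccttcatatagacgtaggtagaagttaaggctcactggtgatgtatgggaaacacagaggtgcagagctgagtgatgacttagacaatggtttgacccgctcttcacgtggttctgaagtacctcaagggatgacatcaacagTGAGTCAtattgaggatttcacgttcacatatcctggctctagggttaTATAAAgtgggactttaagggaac
Mmp3: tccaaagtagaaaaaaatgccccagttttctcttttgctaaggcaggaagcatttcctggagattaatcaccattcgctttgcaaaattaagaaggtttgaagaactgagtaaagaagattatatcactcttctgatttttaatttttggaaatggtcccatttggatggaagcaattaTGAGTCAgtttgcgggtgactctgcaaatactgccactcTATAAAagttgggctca
Mmp10: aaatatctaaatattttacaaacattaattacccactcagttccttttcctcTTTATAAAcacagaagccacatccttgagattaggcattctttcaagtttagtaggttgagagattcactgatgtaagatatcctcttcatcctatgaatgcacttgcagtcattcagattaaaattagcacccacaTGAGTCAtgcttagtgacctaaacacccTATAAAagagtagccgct
Mmp8: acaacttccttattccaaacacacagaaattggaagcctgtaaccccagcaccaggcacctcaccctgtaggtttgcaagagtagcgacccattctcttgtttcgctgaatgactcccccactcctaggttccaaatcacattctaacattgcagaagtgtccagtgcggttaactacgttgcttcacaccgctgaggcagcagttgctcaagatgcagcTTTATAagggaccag
Mmp27: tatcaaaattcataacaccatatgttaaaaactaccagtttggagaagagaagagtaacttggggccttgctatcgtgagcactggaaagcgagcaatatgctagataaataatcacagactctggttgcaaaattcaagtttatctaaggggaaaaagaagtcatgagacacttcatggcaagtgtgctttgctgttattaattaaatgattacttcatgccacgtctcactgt
The AP-1 motif was found once each in the windows of Mmp13, Mmp12, Mmp3 and Mmp10, beginning 66, 87, 71 and 61 bases before the start. The window of Mmp8 held the TATA motif alone, and that of Mmp27 held neither motif. Of 33469 rat promoter windows of the same 235 bases, 5.99% held the AP-1 motif and 12.5% the TATA motif. Mmp13 shared both motifs with the 3 genes that were higher in the Achilles tendon and was not called itself. A match is a description of letters and not a bound site.

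A list of matrix proteases and inhibitors, which does not hold Mmp27, had 50 genes tested. Of these, 7 were higher and 1 lower in the Achilles tendon (16%, against 5.16% of all genes). The median log2 fold change was -0.12. Timp1, a secreted inhibitor of MMPs, was higher at 173, 179.6, 248 and 195 CPM against 91.8, 84.3, 91.3 and 97.3 CPM (1.12 ± 0.15, adjusted p = 0.00123). The 1 member of that list called lower, Mmp15, a membrane-bound MMP, overlapped between the tendons (-0.71 ± 0.19, adjusted p = 0.0429) and lost the call in 6 of the 8 fits that left out 1 library.

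**Figure D5:**
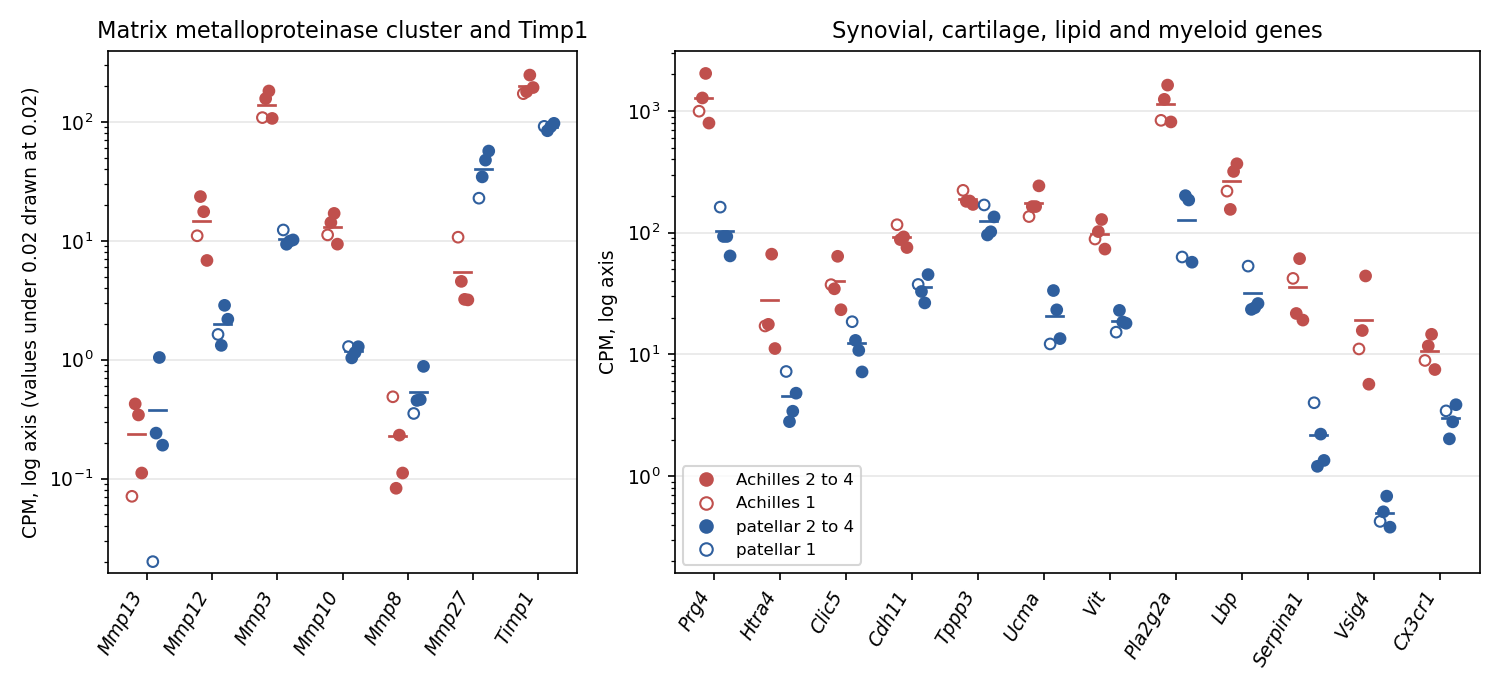
Level (CPM, log axis) of MMP cluster genes in chromosomal order with Timp1 (left) and of synovial, cartilage, lipid and myeloid genes (right) in each library, Achilles in red and patellar in blue, with bars for the means and open circles for library 1. Mmp12, Mmp3 and Mmp10 are higher and Mmp27 lower in every Achilles library than in any patellar library, while Mmp13 and Mmp8 overlap.

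Cartilage-associated and matrix genes were higher in the Achilles tendon, in part of their lists only. Of 24 chondrocyte and fibrocartilage markers tested, 3 were higher and none lower (12.5%, against 5.16% of all genes, median log2 fold change 0.37). Of 50 matrix glycoprotein and elastic fibre genes, 6 were higher and none lower (median 0.22), and of 39 proteoglycan and hyaluronan genes, 4 and none (median 0.42). Ucma, a small secreted protein of cartilage next to growing bone, measured 136, 164, 164 and 242 CPM in the Achilles libraries and 12.2, 33.5, 23.3 and 13.5 CPM in the patellar libraries (3.10 ± 0.38, adjusted p = 0.000643). Sox5, which acts with Sox6 and Sox9 in cartilage, measured 28.8, 21.5, 30.1 and 16.5 CPM against 13.3, 5.90, 6.42 and 7.06 CPM (1.57 ± 0.30, adjusted p = 0.0111). Chondrocyte markers as a whole, Prg4 among them, took 0.712 to 1.56% of the Achilles counts and 0.286 to 0.801% of the patellar counts. These ranges overlap through library 1 of each tendon. The part this share has in the values of Ucma and Sox5 was not tested.

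Vit, vitrin, a secreted matrix protein, measured 88.7, 102, 128 and 73.4 CPM against 15.2, 23.0, 18.5 and 18.0 CPM (2.39 ± 0.24, adjusted p = 0.000149). Matn2, an adaptor of collagen networks, measured 349, 443, 307 and 378 CPM against 179, 113, 162 and 133 CPM (1.33 ± 0.17, adjusted p = 0.000971). Thbs3, a thrombospondin of tendon and bone, measured 126, 148, 125 and 120.2 CPM against 49.2, 49.6, 64.5 and 81.3 CPM (1.09 ± 0.19, adjusted p = 0.00628). These 3 did not overlap between the tendons. Mgp, an inhibitor of calcification (0.86 ± 0.15, adjusted p = 0.00599), the syndecan Sdc2 (0.92 ± 0.15, adjusted p = 0.00419) and the hyaluronan receptor Cd44 (0.70 ± 0.14, adjusted p = 0.0122) were higher by up to about 1 on the log2 scale. Itgb8, an integrin chain that takes part in releasing TGF-beta from its latent form, measured 16.4, 12.7, 18.1 and 10.6 CPM against 4.27, 2.89, 2.43 and 2.81 CPM (2.22 ± 0.37, adjusted p = 0.00512). Loxl3, which crosslinks collagen, was the 1 gene called of 23 crosslinking and hydroxylating enzymes (1.28 ± 0.25, adjusted p = 0.0119), a share of 4.35% against 5.16% of all genes.

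None of 11 fibrillar collagens was called at an adjusted p under 0.05, and the median of the 11 was 0.24. Col1a1 measured 57080, 108000, 60380 and 117300 CPM in the Achilles libraries and 47100, 65050, 76730 and 101400 CPM in the patellar libraries (0.24 ± 0.33, adjusted p = 0.705). Col3a1 measured 35320, 25670, 23030 and 17980 CPM against 20800, 26710, 39340 and 40760 CPM (-0.32 ± 0.28, adjusted p = 0.526). Scx and Mkx, the transcription factors that define tendon cells, named here for that role after their values were seen, were not called either. Scx ran from 5.67 to 86.4 CPM in the Achilles libraries and from 15.6 to 67.7 CPM in the patellar libraries, with an adjusted p of 0.983, and Mkx had an adjusted p of 0.378. Tnmd, tenomodulin, a membrane marker of mature tendon cells, measured 196, 597, 413 and 935 CPM and 258, 454, 392 and 810.5 CPM (0.16 ± 0.43, adjusted p = 0.861). For Col1a1, Scx and Tnmd the spread within a tendon exceeded the difference between the tendons, and library 1 was the lowest of its tendon.

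Of 20 osteoblast and mineralisation genes tested, 2 were higher and none lower (10%, against 5.16% of all genes, median 0.46). Bglap, osteocalcin, which has near-identical copies in the rat genome that counting could split, measured 0.337, 9.28, 14.0 and 0.690 CPM against 0.0851, 0.255, 0.224 and 0.153 CPM (5.08 ± 1.01, adjusted p = 0.0127), and its log2 fold change was 4.25 without Achilles 3. Achilles 2 and 3 were high, and Achilles 1 and 4 only a little above the patellar libraries. Dlx3, a homeobox factor of bone and skin appendages that is not on that list, measured 16.4, 12.5, 18.2 and 3.79 CPM against 2.85, 0.397, 0.502 and 1.11 CPM (3.39 ± 0.57, adjusted p = 0.00525), and 4.25 without patellar 1. Its adjusted p was 0.0645 with the 8 hindlimb libraries alone.

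Of 18 tendon fibroblast markers, 2 were called, both higher in the Achilles tendon (11.1%, against 5.16% of all genes). Among the 18 fold changes, 16 were above 0, with a median of 0.8. The 2 called were Tppp3, counted above as a synovial and sheath marker, and Thbs4, a thrombospondin of muscle-tendon junctions (1.41 ± 0.35, adjusted p = 0.0344). Its level was 714, 2135, 1495 and 2263 CPM against 318, 696, 644 and 832 CPM, Achilles 1 lay within the patellar range, and the call was lost without Achilles 2, 3 or 4 or patellar 2 or 3. Without Achilles 1 the count rose to 6, and without both library 1s to 7, all higher. Dcn, the small proteoglycan decorin, had an adjusted p of 0.0556 (0.95 ± 0.27) that became 0.046 without Achilles 1. Fmod, fibromodulin (0.152 to 0.0416), and Comp, cartilage oligomeric matrix protein (0.179 to 0.0481), passed the threshold on the same step. With the muscle marker level as a covariate, none was called higher and 1 lower, and with the 8 hindlimb libraries alone none was called.

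Of 27 BMP and GDF ligands and antagonists, 2 were higher and 2 lower (14.8%, against 5.16% of all genes). Bmp7, a bone morphogenetic protein, measured 0.514, 0.259, 0.131 and 0.178 CPM in the Achilles libraries and 2.24, 4.50, 10.9 and 15.8 CPM in the patellar libraries (-4.93 ± 0.70, adjusted p = 0.00203, and -5.755 without both library 1s). The BMP antagonist Nog was lower with it (-1.34 ± 0.28, adjusted p = 0.0156) at under 1 CPM in every library, and lost the call without Achilles 2 or patellar 3. Grem1, another BMP antagonist, was higher, at 1.55, 1.53, 0.877 and 3.08 CPM against 0.572, 0.383, 0.145 and 0.382 CPM (2.23 ± 0.39, adjusted p = 0.00604), and its adjusted p was 0.0667 with the 8 hindlimb libraries alone. The groups did not overlap in any of these 3 genes.

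Of 28 Wnt ligands and receptors, 2 were higher and 1 lower (10.7%, against 5.16% of all genes). Wnt2 measured 3.55, 2.29, 0.917 and 1.55 CPM against 12.7, 15.4, 20.8 and 26.1 CPM (-3.17 ± 0.50, adjusted p = 0.00373). Wnt16, a ligand of bone and joint surfaces, measured 1.38, 1.38, 0.978 and 1.80 CPM against 0.365, 0.0567, 0.251 and 0.0763 CPM (2.87 ± 0.51, adjusted p = 0.00764). Lgr5, a receptor for R-spondins, was higher (2.23 ± 0.49, adjusted p = 0.0199) and lost the call without Achilles 2, patellar 2, patellar 4 or both library 1s. The 2 ligands went in opposite directions with no overlap between the groups.

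Of 12 hedgehog pathway genes, 2 were higher (16.7%, against 5.16% of all genes). Boc, a co-receptor, was higher at 199, 258, 202 and 241 CPM against 113, 93.5, 115 and 134 CPM (0.98 ± 0.20, adjusted p = 0.0127). Gli1, the transcription factor read as the pathway's output, was called at 1.15 ± 0.29 (adjusted p = 0.037), and lost the call in 6 of the 8 fits that left out 1 library and without both library 1s (adjusted p = 0.105). Of 14 retinoic acid genes, 2 were higher (14.3%), among them Aldh1a2, which makes retinoic acid, at 37.8, 50.2, 47.0 and 28.4 CPM against 15.1, 16.6, 14.0 and 9.10 CPM (1.58 ± 0.26, adjusted p = 0.005). Igfbp6, a binding protein for insulin-like growth factors, measured 1217, 1232, 949.8 and 1006 CPM against 357, 511, 487 and 587 CPM (1.18 ± 0.21, adjusted p = 0.00769). Boc, Aldh1a2 and Igfbp6 did not overlap between the tendons.

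Of 14 plasma protein and complement genes tested, 1 was higher and none lower (7.14%, against 5.16% of all genes), with a median of -0.04. Some genes outside that list that encode secreted proteins were higher. Pla2g2a, a secreted phospholipase, measured 837, 1245, 1630 and 812 CPM in the Achilles libraries and 63.2, 202, 186 and 57.2 CPM in the patellar libraries (3.16 ± 0.50, adjusted p = 0.00416). Lbp, which binds bacterial lipopolysaccharide, measured 219, 155, 318 and 368 CPM against 53.2, 23.5, 24.2 and 26.2 CPM (3.06 ± 0.34, adjusted p = 0.00034). Serpina1, an inhibitor of neutrophil elastase, measured 42.1, 21.7, 61.2 and 19.2 CPM against 4.01, 1.21, 2.22 and 1.35 CPM (4.03 ± 0.42, adjusted p = 0.000208). All 3 were higher in every Achilles library than in any patellar library.

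Of 16 macrophage and monocyte markers, 2 were higher and none lower (12.5%, against 5.16% of all genes), with a median of -0.12. Cx3cr1, the fractalkine receptor, measured 8.93, 11.8, 14.6 and 7.52 CPM against 3.44, 2.03, 2.80 and 3.87 CPM (1.82 ± 0.30, adjusted p = 0.00443). Vsig4, Clec5a, Cd209f and Mnda stand on no list used here. Vsig4, a complement receptor of resident macrophages, measured 11.1, 15.7, 44.1 and 5.70 CPM against 0.426, 0.511, 0.686 and 0.382 CPM (5.25 ± 0.74, adjusted p = 0.00203), with a log2 fold change of 4.43 without Achilles 3. Clec5a, a myeloid lectin, was higher too (1.71 ± 0.20, adjusted p = 0.000571). Cd14, the other marker called (0.65 ± 0.16, adjusted p = 0.0303), overlapped between the tendons and lost the call without Achilles 2 or 3, patellar 1, 2 or 4, or both library 1s. Cd209f, a lectin receptor of the DC-SIGN family, was lower, at 3.81, 1.57, 1.10 and 0.701 CPM against 11.0, 7.91, 13.4 and 17.1 CPM (-2.78 ± 0.54, adjusted p = 0.0118), and its log2 fold change was -3.45 without Achilles 1. Mnda, an interferon-responsive nuclear protein of myeloid cells, was lower at 30.4, 20.9, 16.3 and 14.2 CPM against 76.8, 128, 148 and 137 CPM (-2.58 ± 0.33, adjusted p = 0.000942). Macrophage markers took 0.146 to 0.287% of the Achilles and 0.133 to 0.235% of the patellar counts, overlapping ranges.

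Of 12 mast cell markers, 2 were lower (16.7%, against 2.06% of all genes) and none higher, and the median log2 fold change was -1.01 with none of the 12 above 0. Cpa3, the mast cell carboxypeptidase, measured 50.8, 20.3, 21.1 and 22.0 CPM against 56.6, 93.8, 117 and 101 CPM (-1.69 ± 0.35, adjusted p = 0.0159). Cma1, a chymase, measured 47.8, 25.3, 27.7 and 27.8 CPM against 51.7, 108, 146 and 116 CPM (-1.71 ± 0.35, adjusted p = 0.0148). In both, Achilles 1 and patellar 1 were close to each other between the remaining libraries, and the call was lost without Achilles 2 and with the 8 hindlimb libraries alone, where none of the 12 was called. The count was 6 lower without Achilles 1 and 7 without both library 1s.

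Other genes lower in the Achilles tendon with non-overlapping groups included the opioid precursor Penk, proenkephalin, at 4.41, 4.08, 2.88 and 4.84 CPM against 14.5, 19.1, 15.8 and 41.8 CPM (-2.49 ± 0.37, adjusted p = 0.00307). Itm2a, a membrane protein of differentiating cartilage and muscle, measured 307, 225, 167 and 291 CPM against 609, 704, 758 and 958 CPM (-1.61 ± 0.20, adjusted p = 0.000643). Nox4, an oxidase that makes hydrogen peroxide, measured 2.93, 5.31, 5.25 and 4.38 CPM against 12.1, 15.6, 21.4 and 27.4 CPM (-2.10 ± 0.25, adjusted p = 0.000567). Each kept its call in the 8 fits that left out 1 library. Car8, a carbonic anhydrase-related protein that lacks enzyme activity, was lower at 4.06, 3.65, 3.87 and 3.45 CPM against 11.5, 13.1, 18.7 and 21.7 CPM (-2.11 ± 0.21, adjusted p = 0.00015).

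Of 10 imprinted growth genes, 3 were lower and none higher (30.0%, against 5.16% of all genes), with a median of -0.45. Mest measured 89.4, 57.7, 59.8 and 79.9 CPM against 128, 162, 163 and 136 CPM (-1.04 ± 0.21, adjusted p = 0.0129). Peg3 (-0.60 ± 0.14, adjusted p = 0.028) and Grb10 (-0.43 ± 0.095, adjusted p = 0.0199) differed by less than 1 on the log2 scale, and lost the call in 4 and 3 of the fits that left out 1 library. Of 26 basement membrane genes, 2 were lower and 1 higher (11.5%). Col4a1, a chain of type IV collagen, measured 1190, 1425, 1567 and 1094 CPM against 1862, 2588, 2633 and 2210 CPM (-0.82 ± 0.17, adjusted p = 0.0151) and lost the call without patellar 2 or 3. The laminin chain Lamc3 was higher (1.16 ± 0.22, adjusted p = 0.0105), and Lamc1 was lower (-0.76 ± 0.21, adjusted p = 0.0471) with a call that was lost in 6 of those fits.

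Of 14 slow muscle markers, 10 were higher in the Achilles tendon and none lower (71.4%, against 5.16% of all genes), with a median of 5.62. Tnni1, the slow troponin I, measured 1.67, 434, 101 and 502 CPM against 1.39, 5.01, 7.74 and 1.64 CPM (6.04 ± 1.23, adjusted p = 0.0141). Csrp3, a muscle LIM protein, measured 0.983, 91.6, 18.1 and 52.0 CPM against 0.584, 1.12, 1.32 and 0.611 CPM (5.49 ± 0.99, adjusted p = 0.00771), with 4.71 without Achilles 2. Achilles 1 lay within the patellar range in both genes. Myl3 (6.14 ± 1.29, adjusted p = 0.0161) lost its call without patellar 4. Myom3, a slow-fibre M-band protein, was the 1 of these with no overlap, at 18.1, 72.0, 29.7 and 47.7 CPM against 6.79, 8.64, 8.51 and 9.25 CPM (2.34 ± 0.43, adjusted p = 0.00789). With the 8 hindlimb libraries alone, 1 of the slow markers was called, and 3 with the muscle marker level as a covariate.

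Of 12 fast muscle markers, 3 were lower in the Achilles tendon and none higher (25.0%, against 5.16% of all genes), with a median of -2.54. The median was -0.33 without patellar 1 and -0.29 without both library 1s, and none of the 12 was called with the 8 hindlimb libraries alone. Actn3, the fast alpha-actinin, measured 14.0, 5.46, 3.67 and 5.05 CPM against 1407, 44.7, 6.48 and 199.6 CPM (-5.88 ± 1.28, adjusted p = 0.0194), and its log2 fold change was -3.56 without patellar 1. Pvalb, the calcium buffer parvalbumin, moved from -5.38 to -3.54 and Mybpc2, fast myosin-binding protein C, from -5.59 to -3.24 on the same step. Patellar 3 was near the Achilles level in all 3, and calls were lost without Achilles 2 (all 3 genes) or Achilles 3 (Actn3 and Mybpc2). Of 24 general muscle markers, none was called in either direction, and 11 were higher without both library 1s.

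Nerve genes were high in Achilles 1. Of 25 Schwann cell and nerve markers, 24 had a log2 fold change above 0. The median was 1.37, and 0.06 without Achilles 1. Of the 25, 1 was called (4.0%, against 5.16% of all genes). It was Pmp22, a myelin protein also made by fibroblasts, at 2636, 708, 637 and 617 CPM against 476, 436, 438 and 425 CPM (1.37 ± 0.37, adjusted p = 0.0474), with 0.56 without Achilles 1. It lost the call without Achilles 2 or any 1 patellar library. Pmp2, a myelin lipid-binding protein outside that list, measured 85.7, 1.83, 1.66 and 1.44 CPM against 0.523, 0.511, 0.211 and 0.153 CPM (6.02 ± 1.32, adjusted p = 0.0199), with 2.23 without Achilles 1. It was still called without that library and lost the call without patellar 2, 3 or 4.

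Lists of general cell state held few or no calls. No gene was called among 23 adipocyte, 20 endothelial, 18 pericyte, 9 MHC class II, 14 neutrophil and 12 lymphocyte markers. The same held for 31 oxidative phosphorylation, 21 glycolysis, 27 immediate early and 18 circadian clock genes. A list without calls can still lean one way. The median log2 fold change was -0.84 for neutrophil, -0.62 for lymphocyte and 0.34 for pericyte markers, and -0.45 for immediate early genes. Neutrophil markers took 0.00226 to 0.00554% of the Achilles and 0.00574 to 0.0107% of the patellar counts, ranges that do not overlap. MHC class II genes took 0.111 to 0.14% of the counts of the Achilles libraries, and 0.205 to 0.266% of those of patellar 2 to 4 against 0.105% in patellar 1. These zeros refer to an adjusted p under 0.05 over all genes with edgeR, where 3813 genes had an unadjusted p under 0.05 and DESeq2 called 1977.

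When the 8 hindlimb libraries were fitted alone, 238 of all 874 calls were kept. Of the 83 called genes named here, which were chosen in part for small p, 29 lost the call in that fit. Among the limb factors these were Hoxb3, Hoxc4 and Tbx5, and among muscle and nerve genes Actn3, Csrp3, Mybpc2, Myl3, Pvalb, Tnni1, Pmp2 and Pmp22. Among surface, protease, matrix and bone genes they were Clic5, Htra4, Tppp3, Mmp15, Thbs4, Col4a1, Lamc1, Lamc3, Bglap and Dlx3. The rest were the signalling genes Gli1, Grem1, Lgr5 and Wnt16, the imprinted gene Peg3, and the immune and mast cell genes Cd14, Cma1 and Cpa3.

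In the authors' deposited table of the same contrast, 797 of 12588 genes had an FDR under 0.05. Of those, 548 were also called here, all with the same sign. A further 168 genes called here were not listed in the authors' deposited table. Lhx9 is given there with a log2 fold change of -5.21. Some deposited values lay closer to the fit without Achilles 1 than to the main fit. Bmp7 is given there as -5.441, against -5.449 without Achilles 1 and -4.927 in the main fit. For Bglap the values are 5.489, 5.48 and 5.082, and for Actn3 -6.436, -6.453 and -5.878. Which libraries entered the deposited fit was not tested, so the 548 shared calls may not rest on the same libraries.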

How the data were processed

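RNA-seq of rat tendon tissue gave 1 table of 16 libraries, 4 per tendon. The values are whole-number counts per Ensembl gene, deposited by the authors without normalisation. FastQC, HISAT2, edgeR and the rn6 build are named per the submitters' processing notes, and no label or header gives the counting tool, the strand setting or a version. Per the file headers, the authors' deposited edgeR table holds log2 fold changes, mean log2 CPM, p-values and FDR for each pair of tendons.

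The counts were refitted with edgeR 4.0.16 (R 4.3.3): genes kept by a minimum count of 10 and minimum total of 15, TMM scaling, quasi-likelihood test with 1 coefficient per tendon over all 16 libraries (12 residual degrees of freedom), Benjamini-Hochberg adjustment over 16948 genes, threshold 0.05. A standard error is the fold change divided by the root of F. Alternatives used DESeq2 1.42.0, limma 3.58.1, other scalings, filters and sample sets, a muscle covariate (mean log2 level of 48 markers) and the replicate number as a block. The script was tested on simulated data with known changes.

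The 53 gene lists (1145 symbols, of which 1056 matched by symbol, 26 through RefSeq and 63 not at all), the comparison and the naming rule were chosen with earlier results of these data known. Genes were named if they had an adjusted p under 0.05, at least 5 CPM in the higher tendon and no overlap between the tendons, taking the 15 of largest fold and the 10 of smallest p in each direction. To these were added up to 4 called members per list and direction by p, up to 2 uncalled members per list by level, all limb identity factors, tendon fibroblast markers and fibrillar collagens, and HOX genes of at least 1 CPM. The text describes those whose role is known.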

Additional observations from a re-analysis of the deposited data

Results flagged for a closer look

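Among 244 groups of 4 libraries screened, 21 had a highest or lowest library whose gap to its neighbour, divided by the whole range, was above Dixon's critical value for 4 values. For independent, normally spread values, chance alone gives about 1 in 20 such groups. Marker lists and their own genes were screened together, so the groups are not independent and that rate is only a rough guide. Achilles 1 was the library in 6 of the 21 and patellar 1 in 9.

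Achilles 1 was high in the share of Schwann cell and nerve markers, at 1.0% of counts against 0.141 to 0.182% in the other Achilles libraries. Myelin genes were high in the same library. Pmp22 stood at 2640 CPM against 617 to 708, and Pmp2 at 85.7 against 1.44 to 1.83. Achilles 1 was also above the others in the mast cell genes Cma1, at 47.8 CPM against 25.3 to 27.8, and Cpa3, at 50.8 against 20.3 to 22.0, and below them in Isl1, at 12.8 against 22.8 to 24.4.

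Patellar 1 was high in muscle RNA. Fast muscle markers took 2.21% of its counts against 0.0143 to 0.303%, general muscle markers 2.76% against 0.545 to 0.885%, and satellite cell and myogenic markers 0.00591% against 0.000735 to 0.00125%. Actn3 stood at 1410 CPM against 6.48 to 200 and Mybpc2 at 796 against 3.13 to 105. In patellar 1 Lbp was high, at 53.2 CPM against 23.5 to 26.2, as was Sox5, at 13.3 against 5.9 to 7.06. In the same library Tbx5 was low, at 1.06 CPM against 6.05 to 6.86, and so was Hoxc9, at 2.57 against 4.44 to 4.81.

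The remaining libraries stood out in 1 gene each or a few. Achilles 2 had Grb10 at 148 CPM where 126 was the highest of the others, and Achilles 3 had Htra4 at 66.6 against 11.2 to 17.7. Patellar 2 had Isl1 at 0.808 CPM against 0 to 0.0509, and Hoxd11 at 0 against 0.0122 to 0.0132, a difference of 1 count. Patellar 4 had Gli1 at 5.1 CPM against 2.86 to 2.96 and Penk at 41.8 against 14.5 to 19.1.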

How the results depend on the processing

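Against 874 calls (525 higher, 349 lower), DESeq2 gave 1977 (1127 and 850) and limma-voom with sample quality weights 3073 (1495 and 1578). The 8 hindlimb libraries alone gave 268 (150 and 118), and the fit without Achilles 1 and patellar 1 gave 1381 (772 and 609), with 702 of the 874 kept. The hindlimb libraries alone without Achilles 1 and patellar 1 gave 959 (456 and 503), with 474 of the 874 kept. Without a filter, 229 genes were lower. Leaving out 1 library gave 342 (without Achilles 2) to 1415 calls (without patellar 1), 234 (without patellar 3) to 724 higher and 96 (without Achilles 2) to 691 lower. Of 83 called genes among the 101 the text names, 60 were called in each of these 8 fits, 29 lost the call with the 8 hindlimb libraries alone, and none was called in the opposite direction in any setting. The named genes were chosen in part for small p, so these counts do not stand for all calls. Of all 874 calls, 338 were kept without Achilles 2, 338 without patellar 3 and 238 in the 8 hindlimb libraries alone. Calls by the other scalings, limma-voom without weights, the stricter filter and the muscle covariate stayed within 1.5 times of the count.

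Libraries with the same number were not taken as pairs, since the correlation of their deviations ran from -0.058 to 0.37 and was over 0.1 in 3 of the 4 numbers only. By that measure 5 of the 8 correlated best with their own number. Between libraries of different numbers the correlation ran from -0.314 to 0.167. Whether a number marks the same animal in both tendons was not tested. With the replicate number as a block, 836 genes were called (489 higher and 347 lower), of which 699 were among the 874, and Hoxb3, Hoxc4, Htra4, Lamc1, Mmp15, Pmp2, Pmp22 and Tppp3 were not called. Where a gene had few counts, as Sall1 and Hoxd11 did in the patellar libraries, counting error limits the size of the fold.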

Other observations

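Col1a2, the partner chain of Col1a1 in type I collagen, was counted at 206, 166, 120 and 457 CPM in the Achilles libraries and 69.0, 128, 115 and 164 CPM in the patellar libraries, while Col1a1 lay between 47100 and 117300 CPM. The cause was not tested.

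Of 29 cell cycle genes 2 were higher and none lower in the Achilles tendon, and 25 of the 29 fold changes were above 0 with a median of 0.26. That is 6.9% called, against 5.16% of all genes, and none was called with the 8 hindlimb libraries alone, with library totals as the scaling or with the muscle covariate. Of 15 heat shock chaperones 2 were higher and none lower (13.3%), and of 31 axon guidance genes 2 and none (6.45%).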
